A study of Mus musculus with 12 samples.

Results

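The interaction between genetic background and MEK inhibition was examined in mouse embryonic stem (ES) cells, as the response to the inhibitor in the B6J background minus the response in the 129 background, gene by gene. Of the 12 libraries in the series, 12 entered the comparison. There were 3 libraries each of 129 cells given the solvent DMSO, 129 cells given the inhibitor, B6J cells given DMSO and B6J cells given the inhibitor. All were labelled male. B6J is read here as C57BL/6J. Culture was in ES cell medium containing serum and LIF (leukaemia inhibitory factor) for every group, and DMSO or PD 0325901, a MEK inhibitor, at 1 µM was given daily up to day 5, when RNA was taken. The labels name 1 genotype for each background and no clone or number of lines, so background and cell line cannot be told apart. Whether the 3 libraries of each group are from separate cultures is not stated in the labels. The p-values therefore reflect variation among these libraries, possibly technical only.

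MEK is the kinase that activates ERK, the signal by which FGF ligands push ES cells out of the naive state towards lineage commitment. Blocking MEK lowers feedback and immediate early genes of the pathway and raises naive pluripotency factors, and in such medium ES cells lose DNA methylation. ES cells of the 129 strain have been the usual source of ES lines, and those of C57BL/6 are known to respond differently to culture conditions, which is the setting of the series title on genetic variation and hypomethylation.

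Library totals ran from 62634533 to 96341637 counts, and levels are given as CPM (each count relative to its library's TMM-scaled total). ES cell genes were expressed in every library, with Pou5f1 (Oct4) between 659.8 and 899 CPM and Nanog between 303 and 777 CPM. In each group 1 library stood apart from the other 2, replicate 1 in 129 with DMSO, in 129 with the inhibitor and in B6J with DMSO, and replicate 3 in B6J with the inhibitor. Chi-square per degree of freedom between that library and the others was 36.8 to 150.8, against 6.26 to 23.03 between the other 2. Of 24 fibroblast (feeder cell) markers, 0 were at 0 counts in any library. Their summed level was 6472 to 11634 CPM in 129 with DMSO, 12665 to 18163 in 129 with the inhibitor, 8735 to 9902 in B6J with DMSO and 12516 to 19020 in B6J with the inhibitor, higher with the inhibitor in both backgrounds. The 18 primitive endoderm markers summed to 13062 CPM in replicate 1 of 129 with DMSO and to 1652 and 1670 CPM in the other 2 libraries of that group. In bulk RNA, fewer cells of a type and less RNA per cell cannot be told apart.

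Genes that the inhibitor moved in both backgrounds mostly moved the same way, 3638 with 1 sign and 45 with opposite signs. Across 16627 genes tested, the 2 responses had a Pearson correlation of 0.694, given as a description; they share no library, but share each gene's length, sequence and counting. A response was called in 5930 genes in 129 (35.7% of those tested) and in 5166 in B6J (31.1%), at an adjusted p under 0.05 in edgeR's quasi-likelihood test, the test behind every adjusted p below. The interaction was called in 246 genes, 1.48% of those tested. In 118 of them (0.71%) the response was higher in B6J, that is, a larger rise or a smaller fall, and in 128 (0.77%) it was lower. The median size among the called genes was a log2 difference of 1.10, and 140 exceeded 1.

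**Figure D1:**
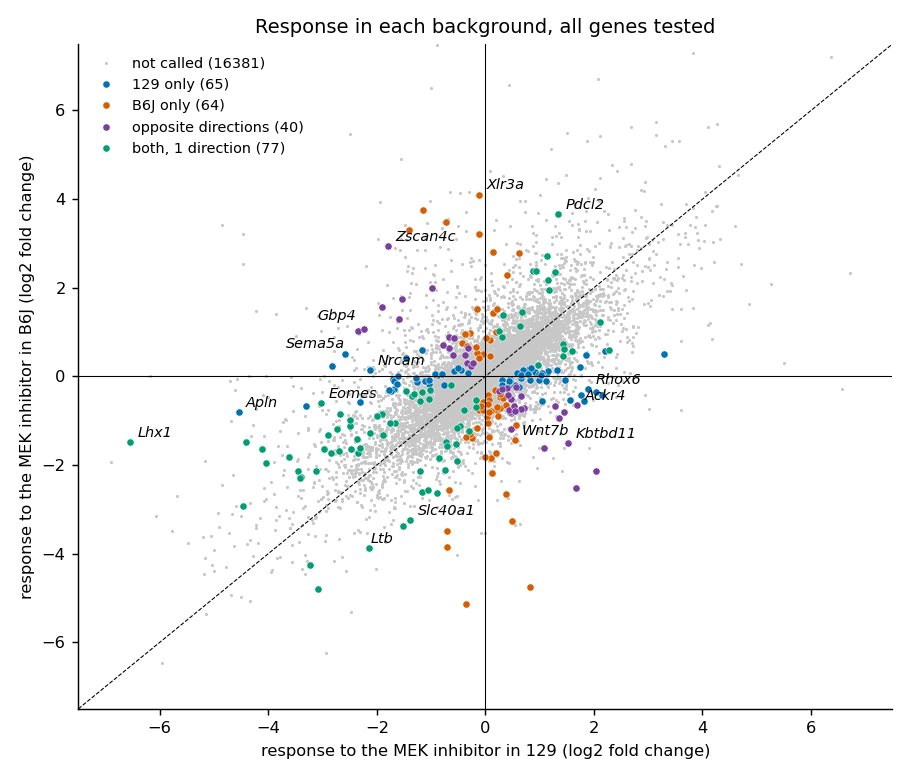
Log2 fold change with the MEK inhibitor in 129 (x axis) and in B6J (y axis) for the 16627 genes tested, each from 3 against 3 libraries; coloured points are the 246 genes with a called interaction, the dashed line marks equal responses, and 8 genes that were not called lie outside the axes. Purple points, the 40 genes called in both backgrounds with opposite signs, lie to the upper left and lower right of the origin.

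The 246 genes fall into 4 kinds by which of the responses was itself called. In 65 the response was called in 129 and not in B6J (37 rose and 28 fell), in 64 in B6J and not in 129 (24 rose and 40 fell), and in 40 in both with opposite signs (23 rose in 129 and fell in B6J, 17 fell in 129 and rose in B6J). Of these 40, 15 had a called interaction with opposite called responses in all 12 fits that leave out 1 library, and 8 in all 24 alternative fits. In 77 the response had 1 sign in both but was larger in 129 (44) or in B6J (33). A missed call does not show that a background did not respond. In 44 of the 65 and 35 of the 64 the 95% interval of the other background's response lay within 1.5-fold of no change. Calls of the 2 responses taken alone gave a different picture, since 2247 genes were called in 129 and not in B6J, of which 65 (2.89%) had a called interaction, and 1483 in B6J and not in 129, of which 64 (4.32%) had one. Of the 45 genes called in both with opposite signs 40 (88.9%) had one. At an unadjusted p under 0.05 the interaction held in 2125 of the 16627 genes tested, and its median over all genes tested was 0.00142. Counts and medians of the gene lists below are to be set beside these values and the 1.48% called.

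The number of calls moved with the libraries. Leaving out 1 library gave 73 calls (without replicate 2 of B6J with the inhibitor) to 191, except for 586 without replicate 1 of 129 with DMSO. There were 608 without both 129 libraries numbered 1 and 2059 without the 4 libraries that stand apart. Limma-voom called 163 and DESeq2 798. The sign was the same for the 246 genes in these fits, which adds little, since they were selected on these same libraries. Of the 246, 66 genes were called in every one of 24 alternative fits. The genes described first in each group below are among these 66 unless a count of fits is given.

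The 17 genes that fell in 129 and rose in B6J included Sema5a, a semaphorin guidance protein (chromosome 15, 32244810 to 32696341, GRCm38). In 129 it was at 8.58, 13.5 and 12.7 CPM with DMSO and 2.13, 2.19 and 2.53 CPM with the inhibitor. Sema5a in B6J was at 6.76, 8.04 and 10.2 CPM with DMSO and 19.7, 16.7 and 14.1 CPM with the inhibitor. The 2 treatments did not overlap in either background, while the backgrounds overlapped with DMSO and were far apart with the inhibitor, every B6J library above every 129 library. The response was -2.34 on the log2 scale in 129 (SE 0.21, adjusted p = 1.12e-05) and 1.02 in B6J (SE 0.20, adjusted p = 0.00254), a difference of 3.36 (SE 0.29, adjusted p = 0.00115).

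Gbp4, an interferon-inducible guanylate-binding protein, was in 129 at 4.01, 7.25 and 6.26 CPM with DMSO and 0.953, 1.34 and 1.42 CPM with the inhibitor. Gbp4 in B6J was at 0.604, 0.614 and 0.715 CPM with DMSO and 1.43, 1.48 and 1.13 CPM with the inhibitor. It fell in 129 (-2.24) and rose in B6J (1.06), and the backgrounds, apart with DMSO, overlapped with the inhibitor (interaction 3.30, SE 0.35, adjusted p = 0.00166). Gsc (goosecoid), a homeobox gene of the organizer and anterior primitive streak, went the same way. Its libraries in 129 were at 2.53, 3.91 and 3.87 CPM with DMSO and 0.966, 1.04 and 1.55 CPM with the inhibitor. Those in B6J were at 0.365, 0.313 and 0.162 CPM with DMSO and 0.658, 1.22 and 0.967 CPM with the inhibitor. The treatments did not overlap in either background. Gsc fell in 129 (-1.53) and rose in B6J (1.75), and its interaction was 3.28 (SE 0.47, adjusted p = 0.00736). Ndrg1, a gene induced by hypoxia and stress, differed less in size, with -0.66 in 129 and 0.64 in B6J (interaction 1.30, adjusted p = 0.00909). Every DMSO library of 129 lay above every inhibitor library for Ndrg1, and the reverse held in B6J.

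Weaker calls of this kind were Sned1, a matrix protein (interaction 1.55, adjusted p = 0.0186), Gpc3, a heparan sulphate proteoglycan (1.49, adjusted p = 0.0475), and Zscan4c, a zinc finger gene of the 2-cell-like state (4.74, adjusted p = 0.0337). They were called in 8, 3 and 2 of the 12 fits that leave out 1 library, with adjusted p up to 0.0649 and 0.0972 for Sned1 and Zscan4c (both without replicate 2 of B6J with the inhibitor) and 0.12 for Gpc3 (without replicate 2 of B6J with DMSO). Both responses and the interaction were called, with opposite signs, in 7, 3 and 1 of these 12 fits. Zscan4c was at 1.28, 6.46 and 7.38 CPM with DMSO and 0.525, 2.14 and 1.67 CPM with the inhibitor in 129, where the treatments overlapped. Zscan4c in B6J was at 0.151, 0.0963 and 0.189 CPM with DMSO and 0.898, 1.42 and 1.03 CPM with the inhibitor, with no overlap. Its reads may be shared among near-identical Zscan4 copies. For Gpc3, replicate 1 of 129 with DMSO was at 206 CPM, against 98.9 and 104 CPM in the other 2.

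The 23 genes that rose in 129 and fell in B6J included Kbtbd11, a kelch and BTB domain protein. It was in 129 at 8.65, 13.1 and 13.6 CPM with DMSO and 28.4, 35.9 and 37.1 CPM with the inhibitor. Kbtbd11 in B6J was at 0.755, 0.578 and 0.594 CPM with DMSO and 0.304, 0.231 and 0.147 CPM with the inhibitor. Both shifts were without overlap, and they widened a gap that was already present with DMSO (responses 1.52 and -1.51, interaction -3.03, SE 0.35, adjusted p = 0.00246). Klhl13, an X-linked kelch-like adaptor of cullin 3 ubiquitin ligases, had the opposite starting order, with B6J above 129 with DMSO. In 129 its libraries were at 136, 150.1 and 169 CPM with DMSO and 198, 205 and 231 CPM with the inhibitor. In B6J they were at 428, 391 and 394 CPM with DMSO and 248, 226 and 211 CPM with the inhibitor. Klhl13 was about as high in both backgrounds with the inhibitor, with overlapping libraries, after a fall in B6J (-0.82) and a rise in 129 (0.48, interaction -1.30, SE 0.13, adjusted p = 0.00166).

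Ackr4, a receptor that scavenges chemokines, rose in 129 from 1.10 to 3.54 CPM (means of 3 libraries) and fell in B6J from 7.21 to 4.60 CPM (interaction -2.34, adjusted p = 0.00572). Its fall in B6J was the weaker side (adjusted p = 0.0431), and the opposite call held in 5 of 12 fits with 1 library left out. Gadd45a, a stress-inducible gene linked to DNA repair and demethylation, was in 129 at 25.1, 25.0 and 24.8 CPM with DMSO and 41.5, 29.2 and 29.9 CPM with the inhibitor. Gadd45a in B6J was at 52.0, 52.7 and 50.6 CPM with DMSO and 30.7, 31.1 and 29.7 CPM with the inhibitor. Neither background overlapped between treatments, and with the inhibitor 2 of the 129 libraries lay near those of B6J and replicate 1 above them (responses 0.43 and -0.76, interaction -1.19, adjusted p = 0.00572). Setdb1, a histone H3 lysine 9 methyltransferase that silences retroelements, was in 129 at 155, 164 and 169 CPM with DMSO and 219, 248 and 256 CPM with the inhibitor. Setdb1 in B6J was at 216, 209 and 212 CPM with DMSO and 185, 180.1 and 176 CPM with the inhibitor. The treatments did not overlap in either background. Setdb1 rose by more in 129 (0.57) than it fell in B6J (-0.23, adjusted p = 0.0203), and the interaction was -0.80 (SE 0.09, adjusted p = 0.00264). The interaction of Setdb1 was called in 12 of 12 fits with 1 library left out, and the opposite responses in 8.

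Dppa3 (Stella), which protects maternal methylation and limits Uhrf1, rose in 129 (0.65) and fell in B6J (-0.45), with an interaction of -1.10 (adjusted p = 0.0187). Its levels were far apart with DMSO, 10.6 CPM in 129 and 57.2 CPM in B6J. The call was made in 9 of 12 fits with 1 library left out (adjusted p up to 0.0669, without replicate 2 of B6J with the inhibitor), with opposite called responses in 8. Cyclin E1 (Ccne1), which drives entry into S phase, moved little (0.26 in 129, -0.34 in B6J, interaction -0.59, adjusted p = 0.0317, called in 4 of 12 such fits with adjusted p up to 0.0943, without replicate 2 of B6J with the inhibitor, and with opposite called responses in 3).

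**Figure D2:**
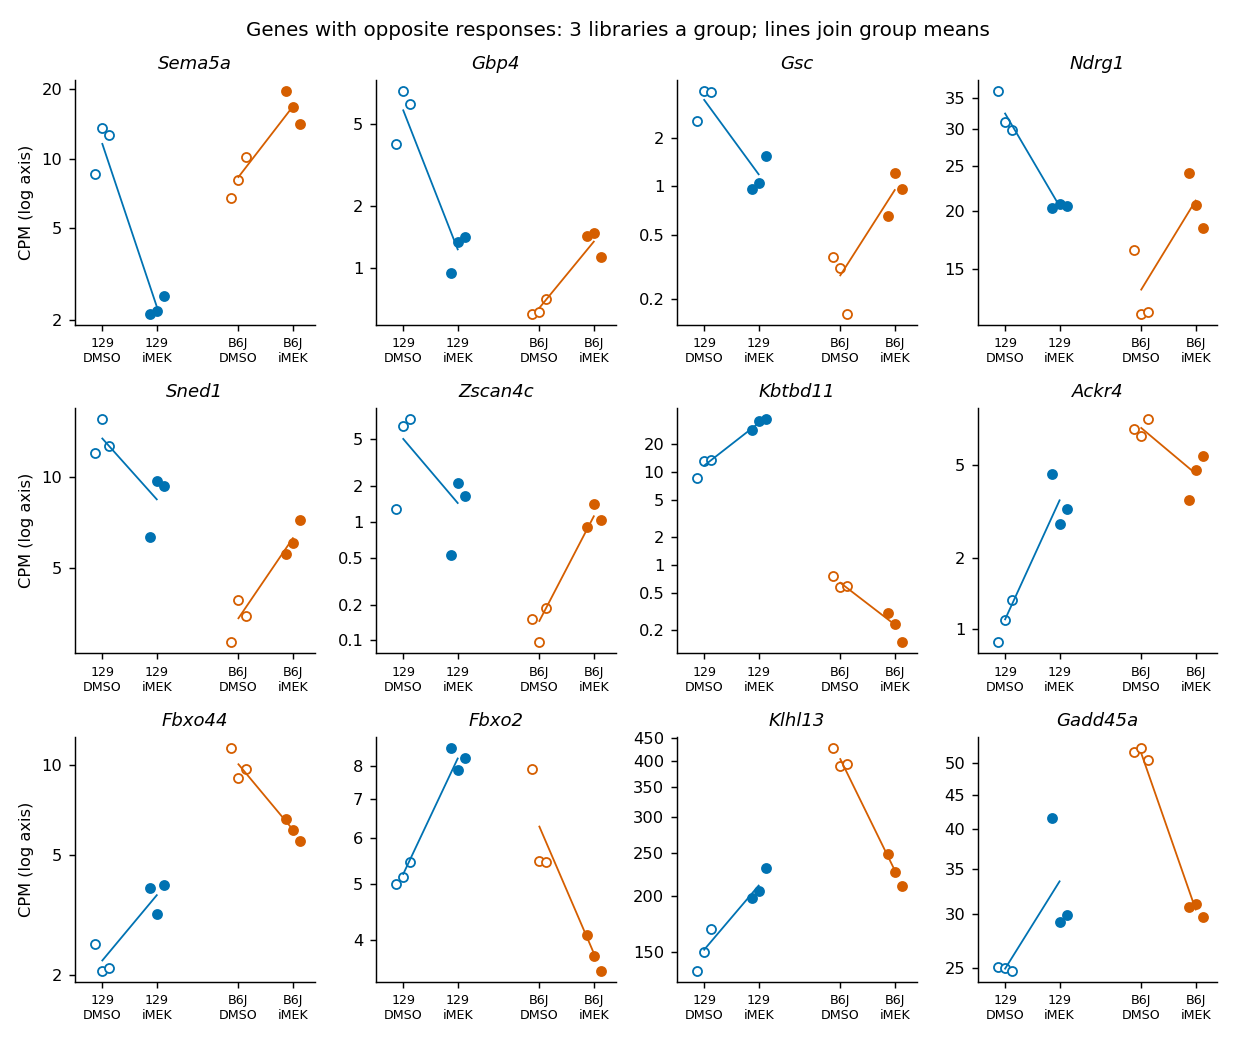
Level in CPM (log axis, each panel on its own scale) of 12 genes with opposite responses, in each library of 129 (blue) and B6J (orange), with DMSO (open points) or the inhibitor (iMEK, filled points); lines join the means of 3 libraries. The blue and orange lines slope in opposite directions in every panel, for example down from 11.6 to 2.28 CPM and up from 8.32 to 16.8 CPM for Sema5a.

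Fbxo44 and Fbxo2, which encode F-box proteins that choose substrates for SCF ubiquitin ligases, lie next to each other on chromosome 4 with 138 bases between them, on opposite strands (Fbxo44 148152800 to 148160482, Fbxo2 148160621 to 148166424). They moved together. Fbxo44 was in 129 at 2.54, 2.07 and 2.11 CPM with DMSO and 3.91, 3.18 and 3.97 CPM with the inhibitor. Fbxo44 in B6J was at 11.4, 9.05 and 9.67 CPM with DMSO and 6.59, 6.09 and 5.58 CPM with the inhibitor. Its treatments did not overlap in either background, and B6J stayed above 129. Fbxo2 was in 129 at 5.01, 5.14 and 5.46 CPM with DMSO and 8.60, 7.86 and 8.26 CPM with the inhibitor. Fbxo2 in B6J was at 7.92, 5.49 and 5.45 CPM with DMSO and 4.09, 3.76 and 3.54 CPM with the inhibitor. For Fbxo2, too, the treatments did not overlap in either background, and B6J ended below 129. The responses were 0.72 and -0.72 for Fbxo44 (interaction -1.44, adjusted p = 0.0073) and 0.66 and -0.73 for Fbxo2 (interaction -1.39, adjusted p = 0.0103). The strand setting of the counting is unknown here, so reads of neighbours this close may not be fully separate.

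The promoter windows of the Fbxo pair are shown because the genes moved together. Windows of Klhl13 and Setdb1, opposite-response genes, were chosen because they hold an ETS motif, the type of site bound by transcription factors that ERK activates. They are examples only, since ETS letters were in 13.2% of windows of opposite-response genes and 14.7% of all windows. Each window is from RefSeq (GRCm38.p6), 250 bases before to 50 bases after a start site, read 5′ to 3′ on the gene's strand, with motif matches in capitals. The Fbxo2 window is chr4:148160418-148160717 on the plus strand, and that of Fbxo44 is chr4:148160045-148160344 on the minus strand, the most upstream of 3 starts listed. The windows of Klhl13 (chrX:23365033-23365332, minus strand, 1 of 5 starts) and Setdb1 (chr3:95357153-95357452, minus strand) follow.
Fbxo2: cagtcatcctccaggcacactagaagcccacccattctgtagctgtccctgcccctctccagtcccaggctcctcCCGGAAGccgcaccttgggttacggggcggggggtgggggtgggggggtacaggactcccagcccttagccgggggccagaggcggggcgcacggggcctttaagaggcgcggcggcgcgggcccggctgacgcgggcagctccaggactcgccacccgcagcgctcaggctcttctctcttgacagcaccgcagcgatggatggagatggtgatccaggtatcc
Fbxo44: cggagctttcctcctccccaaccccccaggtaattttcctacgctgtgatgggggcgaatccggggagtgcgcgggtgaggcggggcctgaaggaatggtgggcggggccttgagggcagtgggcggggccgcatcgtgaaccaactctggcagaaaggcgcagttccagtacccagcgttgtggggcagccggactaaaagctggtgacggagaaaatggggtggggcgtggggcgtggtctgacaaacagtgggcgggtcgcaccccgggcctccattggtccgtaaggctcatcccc
Klhl13: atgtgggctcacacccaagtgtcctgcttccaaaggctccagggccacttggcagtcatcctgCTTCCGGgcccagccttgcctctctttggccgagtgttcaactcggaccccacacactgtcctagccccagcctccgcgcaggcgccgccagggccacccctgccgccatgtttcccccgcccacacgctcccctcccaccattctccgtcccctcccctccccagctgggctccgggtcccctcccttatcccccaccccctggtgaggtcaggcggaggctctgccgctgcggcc
Setdb1: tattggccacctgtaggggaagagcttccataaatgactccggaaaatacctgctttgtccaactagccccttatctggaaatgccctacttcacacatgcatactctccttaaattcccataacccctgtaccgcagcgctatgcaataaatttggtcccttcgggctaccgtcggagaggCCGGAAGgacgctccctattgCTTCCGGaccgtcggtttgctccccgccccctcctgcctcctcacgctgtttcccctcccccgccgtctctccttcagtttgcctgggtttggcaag
The ETS letters CCGGAAG, on either strand, were found at 1 place in each of the Fbxo2 and Klhl13 windows shown and at 2 in the Setdb1 window. The Fbxo44 window shown held none of the motifs searched, and another of its 3 windows held ETS and STAT letters. The other Klhl13 windows held ETS, AP-1 or STAT letters or none of the motifs searched. The windows of Eomes and Sema5a held none of the 6 motifs searched.

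Motif letters were also counted over groups of genes, as a description. Windows were matched by symbol for 12608 of the 16627 genes tested (16036 windows) and 179 of the 246 called genes (235 windows). CCGGAAG was in 14.7% of all windows and in 9.36% of those of called genes, and in 14.8% for genes called in 129 alone, 4.69% for B6J alone and 13.2% for opposite responses. The AP-1 letters TGANTCA were in 5.73% of all windows and 8.09% of those of called genes. The E-box CACGTG was in 9.26% and 5.96%, the CRE letters TGACGTCA in 2.8% and 1.7%, the STAT letters TTCNNNGAA in 6.74% and 7.66%, and the CArG box of SRF in 1.39% and 0.851%. Matches of different motifs may overlap.

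Among the genes with a rise called in 129 and no response called in B6J, 2 were Rhox6 and Rhox9, X-linked homeobox genes of the placenta and germ line. Rhox6 was in 129 at 2.76, 2.80 and 2.90 CPM with DMSO and 13.05, 9.66 and 8.65 CPM with the inhibitor. Rhox6 in B6J was at 5.06, 3.67 and 4.53 CPM with DMSO and 3.52, 3.99 and 3.35 CPM with the inhibitor. The treatments were far apart in 129 and overlapped in B6J. Rhox9 was in 129 at 2.22, 2.59 and 2.65 CPM with DMSO and 10.1, 7.501 and 7.59 CPM with the inhibitor. Rhox9 in B6J was at 4.39, 3.67 and 3.56 CPM with DMSO and 2.92, 2.82 and 2.96 CPM with the inhibitor. In 129 each inhibitor library of either gene stood more than 2-fold above each DMSO library, while in B6J those of Rhox9 were lower, without passing the test. The interactions were -2.18 (SE 0.25, adjusted p = 0.00227) for Rhox6 and -2.17 (SE 0.22, adjusted p = 0.00166) for Rhox9, which lie on the X chromosome 69239 bases apart. Rhox genes share sequence, so their reads may be shared. Pramef12, of the PRAME family, rose from 43.9 to 121 CPM in 129 (1.46) and stood at 27.3 and 25.7 CPM in B6J, where the 95% interval of the response was -0.31 to 0.14 (interaction -1.55, adjusted p = 0.00115).

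Cth, the enzyme that makes cysteine from cystathionine, was in 129 at 114, 114 and 119 CPM with DMSO and 218, 192 and 196 CPM with the inhibitor. Cth in B6J was at 195, 175 and 181 CPM with DMSO and 215, 208 and 202 CPM with the inhibitor. With the inhibitor 129 reached the level of B6J, whose own shift was small and not called (0.18, adjusted p = 0.0637; interaction -0.62, SE 0.09, adjusted p = 0.00909). It was called in 129 alone in 8 of 12 fits with 1 library left out. Serpina3m, a serine protease inhibitor, rose in 129 from 17 to 76 counts over 3 libraries, under 1 CPM, and stood at 7.85 and 6.19 CPM in B6J (interaction -2.38, adjusted p = 0.0405). Apobec2 and the acyltransferase Gpat3 had interactions of -1.53 and -1.38 (adjusted p = 0.0481 and 0.0475). Serpina3m, Apobec2 and Gpat3 were called in 2, 2 and 1 of 12 fits with 1 library left out, with adjusted p up to 0.121, 0.132 and 0.133, each without replicate 2 of B6J with the inhibitor. Gpat3 was called in 129 alone in 0 of these fits, and Rhox9 in 10.

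The genes with a fall called in 129 and no response called in B6J included Apln, the ligand of the apelin receptor. It was in 129 at 17.4, 30.6 and 29.7 CPM with DMSO and 0.690, 1.09 and 1.53 CPM with the inhibitor. Apln in B6J was at 2.49, 3.78 and 4.86 CPM with DMSO and 2.33, 2.03 and 1.96 CPM with the inhibitor. The fall in 129 was -4.55 on the log2 scale, and the B6J response missed the threshold (-0.81, 95% interval -1.49 to -0.14, adjusted p = 0.0652), leaving an interaction of 3.73 (SE 0.45, adjusted p = 0.00294). Nrcam, a neuronal cell adhesion molecule, was in 129 at 23.4, 30.2 and 26.6 CPM with DMSO and 4.18, 6.52 and 7.63 CPM with the inhibitor. Nrcam in B6J was at 8.91, 10.6 and 11.04 CPM with DMSO and 11.05, 10.2 and 12.3 CPM with the inhibitor. Its treatments overlapped in B6J and were far apart in 129 (interaction 2.26, SE 0.27, adjusted p = 0.00296). Tapbp (tapasin), which loads peptides onto MHC class I, was in 129 at 71.99, 87.7 and 87.4 CPM with DMSO and 42.8, 38.5 and 39.7 CPM with the inhibitor. Tapbp in B6J was at 39.9, 36.9 and 40.1 CPM with DMSO and 33.2, 34.1 and 36.3 CPM with the inhibitor. The 129 level fell to near that of B6J (interaction 0.86, adjusted p = 0.00736).

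Slco5a1, a transporter of the organic anion family, had an interaction of 1.88 (adjusted p = 0.0126). Other named genes of this kind were called in part of the 12 fits with 1 library left out. These were the transcription factor Sox11 (1.73, 8 fits, adjusted p up to 0.0649, without replicate 2 of B6J with the inhibitor) and Frmd5 (1.65, 9 fits, up to 0.0575, without replicate 2 of B6J with DMSO). Carmil3, a regulator of actin capping, had 1.76 (5 fits, up to 0.0771, without replicate 2 of B6J with DMSO) and was at most 1.03 CPM in any 129 library. It was called in 129 alone in 1 of the 12 fits, and with the fibroblast score as a covariate in B6J alone. With 1 library left out, Apln was called in 129 alone in 10 fits, Slco5a1 in 11 and Sox11 in 6. The Wnt target Axin2 had 0.95 (1 fit, up to 0.13, without replicate 2 of B6J with the inhibitor).

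Genes with a rise called in B6J and no response called in 129 included several that are far lower in B6J than in 129. Xlr3a, an X-linked gene of a lymphocyte-regulated family, was in 129 at 11.6, 10.8 and 12.7 CPM with DMSO and 7.84, 12.1 and 12.5 CPM with the inhibitor. Xlr3a in B6J was at 0.0252, 0.0241 and 0.0540 CPM with DMSO and 0.848, 0.340 and 0.630 CPM with the inhibitor. It rose in B6J from 8 to 155 counts over 3 libraries, without overlap, and stayed below every 129 library (called in 23 of the 24 alternative fits; response 4.10, interaction 4.21, SE 0.54, adjusted p = 0.0042). Reads may be shared within the Xlr family. Dnah8, an axonemal dynein heavy chain, rose in B6J from 17.6 to 50.5 CPM and stood at 178 and 161 CPM in 129 (interaction 1.67, adjusted p = 0.032). Fmr1nb, a testis antigen, and Calb2 (calretinin) had interactions of 1.89 and 1.31 (adjusted p = 0.0309 and 0.032), and both were lower in every B6J library than in any 129 library. P2ry2, a nucleotide receptor, was in 129 at 3.72, 2.51 and 2.12 CPM with DMSO and 3.58, 3.06 and 3.03 CPM with the inhibitor. P2ry2 in B6J was at 3.81, 4.37 and 3.41 CPM with DMSO and 9.45, 12.2 and 11.7 CPM with the inhibitor. P2ry2 overlapped between backgrounds with DMSO and rose in B6J, while the 129 libraries overlapped between treatments (interaction 1.31, SE 0.28, adjusted p = 0.0475).

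Dnah8, Fmr1nb, Calb2 and P2ry2 were called in 4, 1, 3 and 2 of 12 fits with 1 library left out, with adjusted p up to 0.0898, 0.0906, 0.089 and 0.14, each without replicate 2 of B6J with the inhibitor. Zscan4d (4.72, adjusted p = 0.0364) and Pramef25, of the PRAME family (4.21, adjusted p = 0.0337), were called in 1 and 1 of them (up to 0.103 and 0.0995, without the same library). Pramef25 was under 1 CPM in all 4 groups. Its counts over 3 libraries were 77 with DMSO and 50 with the inhibitor in 129, and 10 and 125 in B6J. Zscan4d was called in B6J alone in 0 of the 12 fits. Without the 4 libraries that stand apart Zscan4d fell in 129 (-1.56, adjusted p = 7.23e-06), and with the fibroblast score as a covariate it rose in 129 (1.63, adjusted p = 0.0491). P2ry2 and Pramef25 were called in B6J alone in 1 and 1 of the 12. Neurog1, a proneural factor, had 2.18 (adjusted p = 0.0483, 1 fit, up to 0.136, without replicate 3 of 129 with DMSO). Neurog1 was under 1 CPM in both 129 groups, at 30 counts over 3 libraries with DMSO and 50 with the inhibitor.

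Genes with a fall called in B6J and no response called in 129 numbered 40. Wnt7b, a Wnt ligand, was in 129 at 11.4, 6.92 and 8.13 CPM with DMSO and 12.6, 13.5 and 12.4 CPM with the inhibitor. Wnt7b in B6J was at 16.8, 11.9 and 13.4 CPM with DMSO and 6.39, 4.86 and 4.33 CPM with the inhibitor. It fell without overlap in B6J, while in 129 the inhibitor libraries were higher, also without overlap, but the response missed the threshold (0.54, adjusted p = 0.0543; interaction -1.98, SE 0.29, adjusted p = 0.00736). With 1 library left out, Wnt7b was a gene called in B6J alone in 8 of 12 fits. Inhbb, the beta B subunit of activin, was in 129 at 18.7, 18.0 and 19.24 CPM with DMSO and 18.8, 19.6 and 19.6 CPM with the inhibitor. Inhbb in B6J was at 17.6, 19.7 and 15.9 CPM with DMSO and 7.35, 8.60 and 9.57 CPM with the inhibitor. The 129 response of Inhbb was 0.05 (95% interval -0.19 to 0.29), against a fall of more than 1 log2 unit in B6J (interaction -1.11, SE 0.16, adjusted p = 0.00667).

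Sh3gl3, an endophilin of membrane trafficking, had an interaction of -1.13 (adjusted p = 0.0129). The neuronal genes Scn2b, a sodium channel subunit (-1.95, adjusted p = 0.0137), and Prph, an intermediate filament gene (-1.44, adjusted p = 0.0186), stood higher in B6J than in 129 with DMSO. Among the inhibitor libraries, Scn2b in B6J lay below every 129 library and Prph just above them. Scn2b, Prph and the polysialyltransferase St8sia2 (-2.79, adjusted p = 0.0354) were called in 11, 9 and 2 of 12 fits with 1 library left out, with adjusted p up to 0.057, 0.0631 (both without replicate 2 of B6J with the inhibitor) and 0.0945 (without replicate 3 of 129 with the inhibitor). Smad3, which carries Nodal and activin signals, fell by 0.55 in B6J and had a 129 response of 0.04 (interaction -0.59, adjusted p = 0.0233; 4 fits, up to 0.089, without replicate 2 of B6J with the inhibitor).

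**Figure D3:**
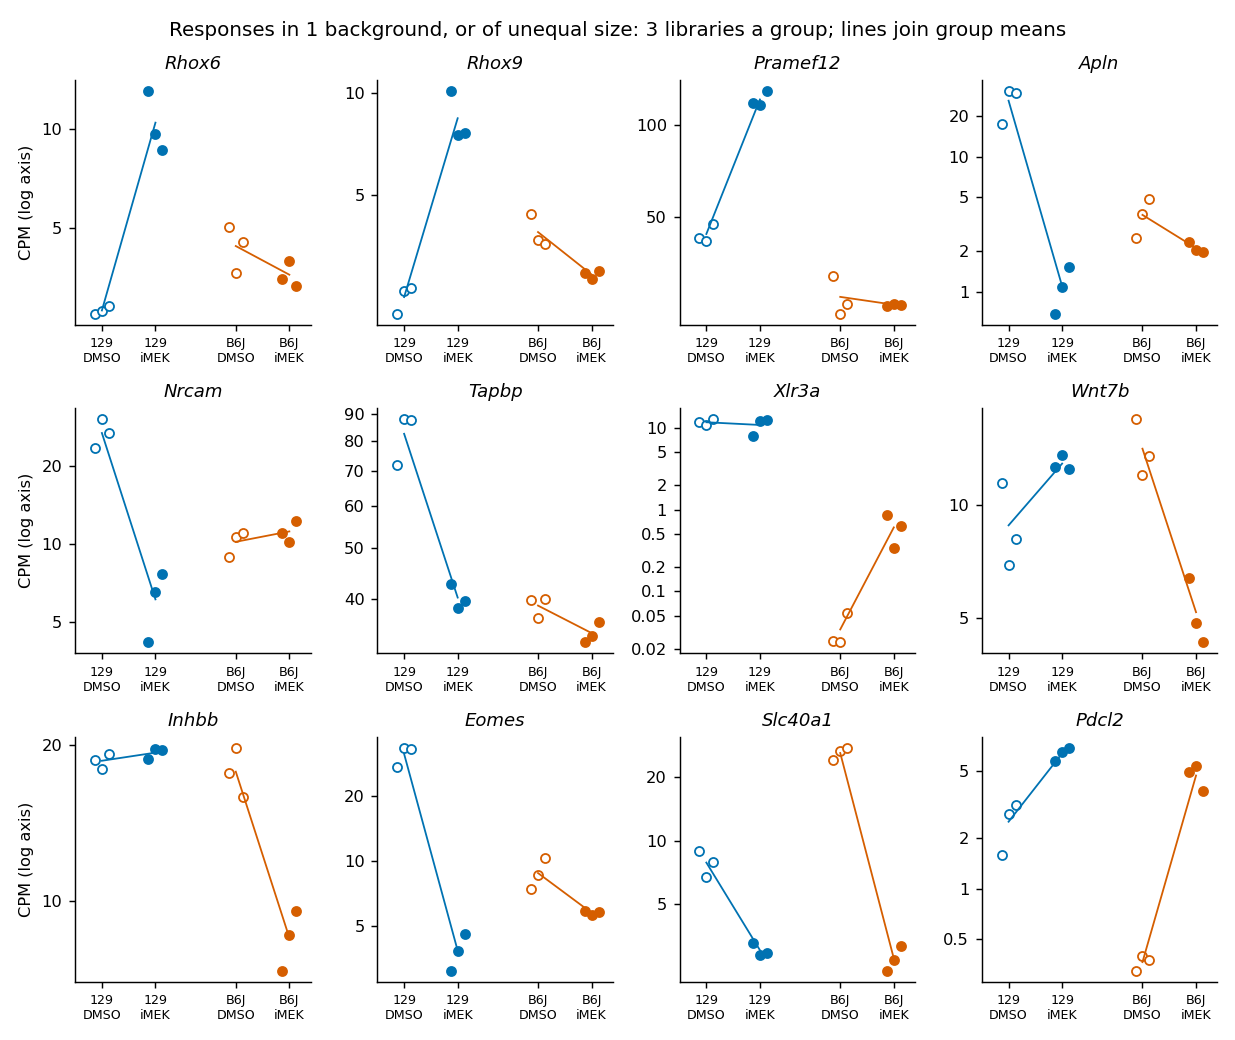
Level in CPM (log axis, each panel on its own scale) of 12 genes with a response called in 1 background, or called in both by unequal amounts, in each library of 129 (blue) and B6J (orange), with DMSO (open points) or the inhibitor (iMEK, filled points); lines join the means of 3 libraries. The response was called in 129 alone for Rhox6, Rhox9, Pramef12, Apln, Nrcam and Tapbp, in B6J alone for Xlr3a, Wnt7b and Inhbb, and in both for Eomes, Slc40a1 and Pdcl2. A response that was not called is not shown to be absent.

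Of the 77 genes with 1 sign in both backgrounds, 37 fell in both and more in 129, 21 fell in both and more in B6J, 7 rose more in 129 and 12 rose more in B6J. Eomes, a T-box factor of the primitive streak, was in 129 at 27.4, 33.5 and 33.2 CPM with DMSO and 3.12, 3.83 and 4.63 CPM with the inhibitor. Eomes in B6J was at 7.43, 8.64 and 10.4 CPM with DMSO and 5.88, 5.63 and 5.81 CPM with the inhibitor. The 129 level started higher and ended lower than that of B6J, with responses of -3.02 and -0.61 (interaction 2.41, SE 0.23, adjusted p = 0.00115). Lhx1, a LIM homeobox gene of the same stage, was in 129 at 14.1, 22.2 and 24.1 CPM with DMSO and 0.0690, 0.362 and 0.218 CPM with the inhibitor. Lhx1 in B6J was at 0.315, 0.409 and 0.607 CPM with DMSO and 0.202, 0.170 and 0.105 CPM with the inhibitor. It was already under 1 CPM with DMSO in B6J (104 counts over 3 libraries, 40 with the inhibitor), so the interaction of 5.06 (SE 0.66, adjusted p = 0.00454) sets a fall from high levels beside a fall from near the detection limit. Mixl1, another streak homeobox gene, went from 10.5 to 0.495 CPM in 129 and from 1.18 to 0.418 CPM in B6J (interaction 2.92, adjusted p = 0.00854, called in 23 of 24 alternative fits). Eomes and Lhx1 fell in both and more in 129 in 10 and 7 of the 12 fits with 1 library left out.

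In the other direction, Slc40a1 (ferroportin, the iron exporter) was in 129 at 8.95, 6.72 and 7.90 CPM with DMSO and 3.26, 2.84 and 2.93 CPM with the inhibitor. Slc40a1 in B6J was at 24.1, 26.6 and 27.6 CPM with DMSO and 2.40, 2.699 and 3.14 CPM with the inhibitor. Slc40a1 fell to like levels from a DMSO level that was higher in B6J, without overlap (interaction -1.86, SE 0.19, adjusted p = 0.00166). Ltb (lymphotoxin beta) was in 129 at 7.55, 9.28 and 9.003 CPM with DMSO and 2.57, 2.97 and 3.44 CPM with the inhibitor. Ltb in B6J was at 6.18, 6.29 and 6.50 CPM with DMSO and 0.620, 0.547 and 0.641 CPM with the inhibitor. The B6J libraries were a little lower than those of 129 with DMSO and far lower with the inhibitor, without overlap in either medium (interaction -1.86, SE 0.21, adjusted p = 0.00227). Pdcl2, a phosducin-like gene of the male germ line, rose in both, from 2.49 to 6.33 CPM in 129 and from 0.367 to 4.67 CPM in B6J (interaction 2.32, adjusted p = 0.00816). Ttbk1, a tau kinase, fell more in B6J (-1.74, adjusted p = 0.00909).

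Called in part of the fits were Lypd6 (1.82, 7 of 12 with 1 library left out, adjusted p up to 0.0649), Lzts1 (1.79, 1, up to 0.123), the AMPA receptor partner Shisa6 (-1.72, 3, up to 0.135) and the bicarbonate transporter Slc4a5 (1.58, 4, up to 0.0829), each with its weakest fit without replicate 2 of B6J with the inhibitor. The same library gave the weakest fit for Grhl2, an epithelial factor of the formative state (-0.92, 3, up to 0.129). For Pdk1, a kinase that restrains pyruvate oxidation (-0.75, 10, up to 0.054), it was the fit without replicate 2 of 129 with DMSO, and likewise for the simple keratin Krt7 (-1.38, 2, up to 0.104). Gata3, a trophoblast factor, rose more in 129 (-1.68, 9, up to 0.0574, without replicate 1 of B6J with the inhibitor). Lypd6 and Gata3 were called in both backgrounds, and more in 129, in 5 and 5 of the 12 fits. With the fibroblast score as a covariate each was called in 129 alone.

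Set out by where the backgrounds differed, the 246 genes split between the 2 media. The difference between backgrounds was called with DMSO alone in 94 genes (1681 over all 16627 genes tested) and with the inhibitor alone in 74 (1266). It was called in both with 1 sign in 50 (1757), in both with opposite signs in 28 (30) and in neither in 0 (11893). Over all genes tested, alone or in both, it was called with DMSO in 3468 (20.9%) and with the inhibitor in 3053 (18.4%). These contrasts use the same libraries as the interaction, so they describe it and do not add to it. Of the 94, 129 was the higher background in 54. Among the 28, 129 was higher with DMSO in 11 and higher with the inhibitor in 17. Over all genes tested 30 had differences of opposite sign in the 2 media, and 28 of these are among the 246. Levels were low in part of the set: 21 genes were under 1 CPM in both 129 groups, 25 in both B6J groups and 11 of them in all 4, and 203 reached 5 CPM in some group.

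**Figure D4:**
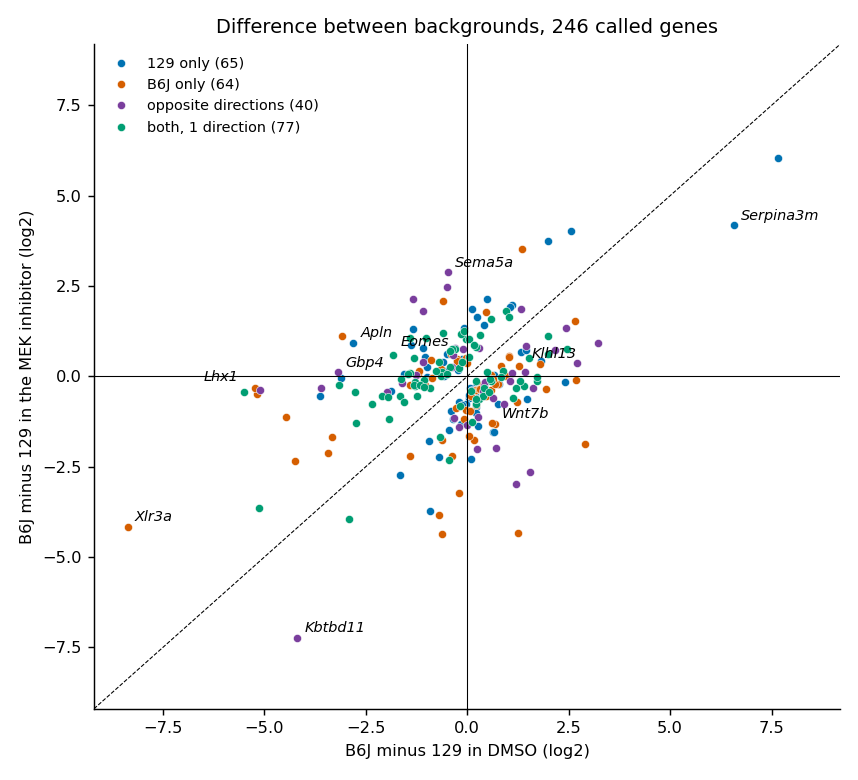
Log2 difference between B6J and 129 with DMSO (x axis) and with the MEK inhibitor (y axis) for the 246 genes with a called interaction, each from 3 against 3 libraries; the dashed line marks an equal difference in both media. Points near the horizontal axis, such as Lhx1, differ between backgrounds with DMSO, and points near the vertical axis, such as Sema5a (-0.48 and 2.88), with the inhibitor.

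Readouts of MEK inhibition moved the same way in both backgrounds. Egr1, an immediate early gene of the ERK pathway, was in 129 at 189.5, 307 and 288 CPM with DMSO and 8.48, 9.90 and 6.20 CPM with the inhibitor. Egr1 in B6J was at 141, 148 and 157 CPM with DMSO and 9.77, 8.51 and 11.2 CPM with the inhibitor. It fell in both, and the interaction of 1.08 (95% interval 0.49 to 1.68) was not called (adjusted p = 0.0856). The ERK phosphatase Dusp6 fell by 1.78 in 129 and 1.49 in B6J (interaction 0.29, 95% interval 0.03 to 0.54, adjusted p = 0.313). Nanog rose by 0.68 and 0.96 (interaction interval -0.26 to 0.82, adjusted p = 0.704) and Prdm14, a repressor of de novo methyltransferase genes, by 1.85 and 1.84 (interval -0.62 to 0.61, adjusted p = 0.997). These intervals bound a difference between backgrounds and do not show that there is none. In the 24 alternative fits the interaction was called 4 times for Egr1, 1 time each for Dusp6 and Nanog, and 0 times for Prdm14.

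In the list of 32 feedback and immediate early genes of MEK/ERK signalling, 24 fell in 129 (18.2% of all genes tested fell) and 26 in B6J (16.5%), 1 rose in each (17.4% and 14.6% of all genes tested rose), and 1 had a called interaction. That was Egr3, an early growth response factor, in 129 at 5.41, 7.27 and 4.81 CPM with DMSO and 0.331, 0.468 and 0.266 CPM with the inhibitor. Egr3 in B6J was at 2.64, 3.24 and 2.698 CPM with DMSO and 0.696, 0.657 and 0.841 CPM with the inhibitor. It fell in both without overlap and more in 129 (interaction 2.08, SE 0.33, adjusted p = 0.0118). At an unadjusted p under 0.05 the interaction held for 13 of the 32, 9 with a smaller fall in B6J, among them Egr2 (1.17, adjusted p = 0.078) and Dusp4 (0.75, adjusted p = 0.0894), and 4 with a larger fall or a lower response in B6J, among them the ETS factor Etv4 (-0.79, adjusted p = 0.0915). The list median was -0.03, against 0.00142 over all genes tested. Of 22 genes of the RAS, RAF, MEK and ERK cascade edgeR called 0 (2 at an unadjusted p under 0.05, 0 by DESeq2 and limma-voom), and of 16 FGF ligands and receptors 0 (5 unadjusted, 1 by DESeq2, 0 by limma-voom). The MEK/ERK feedback count was 5 without replicate 1 of 129 with DMSO, 4 higher and 1 lower in B6J by DESeq2, 1 higher by limma-voom, 4 higher with the fibroblast score as a covariate, and 9 higher and 6 lower without the 4 libraries that stand apart. The FGF count without those 4 was 1 higher and 5 lower, and the list median, 0.37 with all libraries, was -0.11 without the 4 and -0.19 without replicate 1 of 129 with DMSO.

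Of 21 naive pluripotency genes, 19 rose in 129 and 17 in B6J, against 17.4% and 14.6% of all genes tested. In 129 0 fell and in B6J 2 fell, against 18.2% and 16.5%. EdgeR called the interaction of 1, Dppa3 (1.48% of all genes tested were called, 5 of the 21 passed an unadjusted p under 0.05). Tbx3 (0.55, adjusted p = 0.0711) and Nr5a2 (0.68, adjusted p = 0.0971) were the next. The count moved with the fit. DESeq2 called 2 higher and 1 lower in B6J, limma-voom 1 lower, the fit with the fibroblast score 3 higher and 2 lower, that without replicate 1 of 129 with DMSO 3 higher and 1 lower, and that without the 4 libraries 9 higher and 1 lower.

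Of 16 DNA methylation writers and maintenance genes edgeR called the interaction of 1 (1.48% were called over all genes tested), Uhrf2, a relative of the maintenance factor Uhrf1. Uhrf2 was in 129 at 79.7, 82.9 and 80.6 CPM with DMSO and 44.0, 48.0 and 50.5 CPM with the inhibitor. Uhrf2 in B6J was at 52.6, 54.8 and 56.3 CPM with DMSO and 52.8, 48.0 and 42.0 CPM with the inhibitor. It fell in 129 and the B6J response was -0.20 (adjusted p = 0.108; interaction 0.57, adjusted p = 0.045, called in 2 of 12 fits with 1 library left out, up to 0.127, without replicate 2 of B6J with the inhibitor). Over the 24 alternatives Uhrf2 was called in 9. For the 16 genes, limma-voom and upper-quartile scaling gave 0 calls, DESeq2 1 higher and 1 lower in B6J, the fibroblast score 1 higher and 2 lower, and leaving out the 4 libraries 2 and 2. Dnmt3a, a de novo methyltransferase, was in 129 at 127, 184 and 181 CPM with DMSO and 97.1, 134 and 136 CPM with the inhibitor. Dnmt3a in B6J was at 363, 303 and 281 CPM with DMSO and 132, 128 and 136 CPM with the inhibitor. Its B6J libraries were higher with DMSO and alike with the inhibitor, but the interaction of -0.84 (95% interval -1.33 to -0.34) missed the threshold (adjusted p = 0.108). The Dnmt3a interaction was called in 5 of the 24 alternatives and in 0 of the 12 among them that leave out 1 library. Over the 24 it ran from -0.97 to -0.68 (adjusted p from 0.000139 to 0.241). With the fibroblast score as a covariate it was -0.95 (adjusted p = 0.00512). Dnmt3l, the partner without catalytic activity, had -0.71 (interval -1.23 to -0.18, adjusted p = 0.211). Its interaction was called in 4 of the 24 alternatives, 1 of them a fit with 1 library left out. Dnmt3b fell by 1.38 in 129 and 1.35 in B6J (interaction interval -0.27 to 0.33, adjusted p = 0.955). Uhrf1 and the maintenance enzyme Dnmt1 had interactions of 0.06 (interval -0.18 to 0.30) and 0.09 (interval -0.17 to 0.34), with adjusted p = 0.872 and 0.811. Of 18 demethylation genes 2 were called (Gadd45a and Dppa3), of 21 genes of imprint protection and H3K9 silencing 2 (Setdb1 and Dppa3), and of 48 imprinted genes 0 (13 at an unadjusted p under 0.05, 5 higher and 3 lower in B6J by DESeq2, 0 by limma-voom).

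In the mesoderm and primitive streak list 5 of 21 genes had a called interaction, each with a higher response in B6J: Eomes, Apln, Lhx1, Gsc and Mixl1. In 129, 15 of the 21 fell and 3 rose, and in B6J 11 fell and 1 (Gsc) rose, against 18.2% that fell and 17.4% that rose over all genes tested in 129 and 16.5% and 14.6% in B6J. The share called in the interaction over all genes was 1.48%. The list median was 0.69. The interaction was not called for T (Brachyury), the defining streak gene, which went from 120.3 to 3.40 CPM in 129 and from 28.9 to 0.698 CPM in B6J (-0.23, 95% interval -1.55 to 1.09), nor for Fgf8 (0.49, interval -1.11 to 2.08). The count was 5 without replicate 1 of 129 with DMSO, which also gave 1 lower, 6 and 2 lower without the 4 libraries that stand apart, and 7 and 1 lower with the fibroblast score as a covariate.

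In MHC class I antigen presentation 3 of 20 genes were called (1.48% over all genes tested), each falling more in 129: Tapbp, Erap1, the peptidase that trims peptides (1.55, adjusted p = 0.029), and Tap2, a peptide transporter (1.49, adjusted p = 0.0402). Erap1 was in 129 at 29.9, 52.1 and 51.5 CPM with DMSO and 6.27, 7.05 and 6.84 CPM with the inhibitor. Erap1 in B6J was at 11.8, 13.8 and 17.8 CPM with DMSO and 5.75, 7.09 and 6.33 CPM with the inhibitor. The 129 level was the higher with DMSO and the inhibitor levels overlapped. Erap1 and Tap2 were called in 2 and 1 of 12 fits with 1 library left out (adjusted p up to 0.0993, without replicate 2 of B6J with the inhibitor, and 0.105, without replicate 2 of 129 with the inhibitor). The interaction was above 0 in 19 of the 20, with a median of 0.52, against 0.00142 over all genes tested. Psmb10 (1.09, adjusted p = 0.0723) and H2-K1 (0.51, adjusted p = 0.367) are members that missed the threshold. The count was 7 without replicate 1 of 129 with DMSO, 1 without replicate 1 of B6J with DMSO and 8 without the 4 libraries that stand apart.

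ATF4 is the transcription factor of the integrated stress response, which raises amino acid synthesis and transport. Of 24 of its targets and related genes 4 had a called interaction (1.48% over all genes tested), each lower in B6J: Atf4 itself, Chac1, Trib3 and Cth. Atf4 was in 129 at 274, 251 and 253 CPM with DMSO and 282, 268 and 256 CPM with the inhibitor. Atf4 in B6J was at 562, 519 and 511 CPM with DMSO and 399.9, 391 and 398 CPM with the inhibitor. It fell in B6J without overlap and overlapped in 129 (interaction -0.47, SE 0.09, adjusted p = 0.0269). Chac1, which degrades glutathione, had -1.01 (adjusted p = 0.0263) and the pseudokinase Trib3 -0.89 (adjusted p = 0.042). Atf4, Chac1 and Trib3 were called in 7, 4 and 2 of 12 fits with 1 library left out, with adjusted p up to 0.084 (without replicate 2 of 129 with DMSO), 0.0902 and 0.12 (both without replicate 2 of B6J with the inhibitor). The interaction was below 0 in 23 of the 24, with a median of -0.38, against 0.00142 over all genes tested. An unadjusted p under 0.05 was passed by 12 of the 24 (2125 of 16627 over all genes tested), among them the amino acid transporters Slc7a3 (-0.44, adjusted p = 0.0905) and Slc7a5 (-0.42, adjusted p = 0.108). The count was 6 without replicate 1 of 129 with DMSO and 11 without the 4 libraries that stand apart.

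The 2-cell-like genes, of a rare state resembling the 2-cell embryo, held 3 called interactions of 27 (1.48% over all genes tested), Zscan4c, Zscan4d and Pramef25, each higher in B6J. The list median was 3.07, with 24 of 27 above 0 and 20 at an unadjusted p under 0.05. In B6J 15 rose and 0 fell (14.6% and 16.5% over all genes), and in 129 3 rose and 2 fell (17.4% and 18.2%). Of the 27, 3 to 6 were at 0 counts in each B6J library with DMSO, and levels were low, with Zscan4d at 6.68 and 2.52 CPM in 129 and 0.181 and 1.81 CPM in B6J. In replicate 1 of 129 with DMSO Zscan4d was at 1.17 CPM, against 9.62 and 9.25 CPM in the other 2. The count was 17 of 29 without that library, 0 without replicate 1 of B6J with DMSO, 11 by DESeq2 and 0 by limma-voom. These genes lie in families of near-identical copies.

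The markers of other cell types moved with single libraries. The 18 primitive endoderm genes had a median interaction of 2.20 with 0 called (7 at an unadjusted p under 0.05, 0 by DESeq2 and limma-voom), and the median was -0.38 without replicate 1 of 129 with DMSO, the library with the high summed level given above. The 24 fibroblast markers had a median of -0.18 with 0 called (0 at an unadjusted p under 0.05, 0 by DESeq2 and limma-voom), -0.59 without the same library, and 10 lower in B6J without the 4 libraries that stand apart. With the mean log2 level of the fibroblast markers as a covariate, 788 genes had a called interaction, the 246 among them. Of the 40 opposite genes 11 kept opposite responses, 9 rose in 129 alone, 10 rose and 6 fell in B6J alone, 2 fell in 129 alone and 2 had neither response called. Of the named opposite genes Sema5a, Gbp4, Ndrg1, Kbtbd11, Klhl13 and Fbxo2 kept both calls, and the others were called in 1 background. Apart from Zscan4c, whose 129 response went from -1.80 to 0.77 (adjusted p = 0.379), these others kept the sign of both responses. The responses in 129 and B6J were 0.63 and -0.79 for Fbxo44, -1.08 and 2.09 for Gsc, and 1.41 and -0.86 for Ackr4. Smaller sides were 0.21 for Gadd45a in 129, and -0.10 for Setdb1 and -0.11 for Dppa3 in B6J. The part of the fibroblast markers in these results was not tested further.

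**Figure D5:**
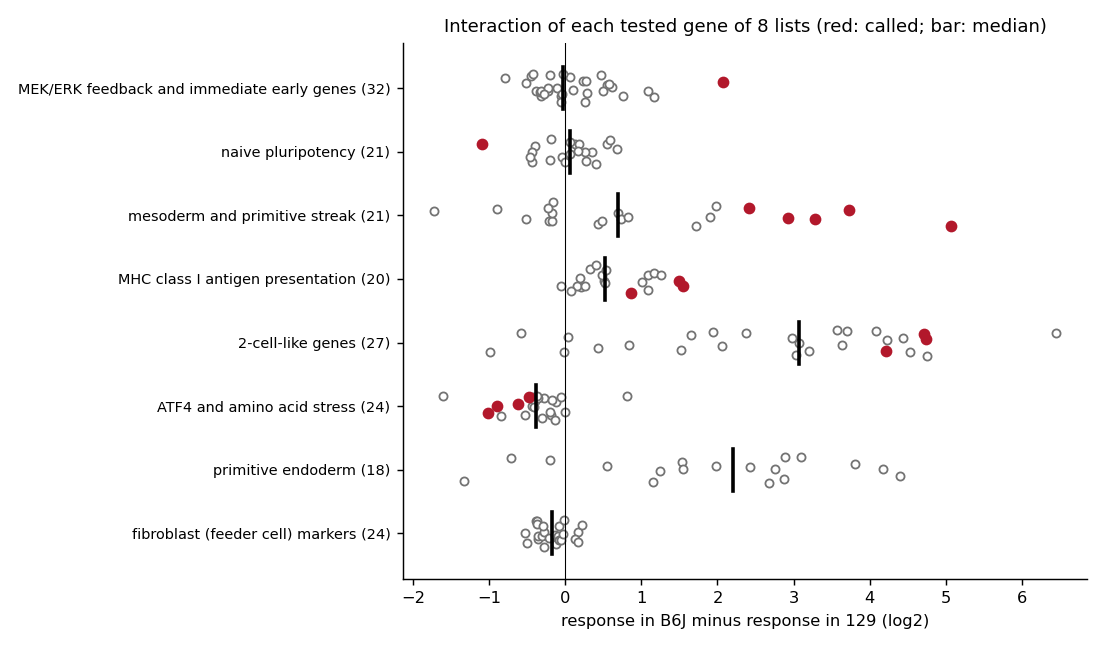
Log2 interaction (response in B6J minus response in 129) of each tested gene in 8 lists, with the number of genes in brackets; red points are called, open points are not, and bars mark medians. The 2-cell-like and primitive endoderm genes spread furthest to the right (medians 3.07 and 2.20), and ATF4 genes lie to the left of 0 in 23 of 24 cases.

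Smaller counts came from the other lists, to be set beside the 1.48% called over all genes tested. Of 49 germline genes silenced by methylation 4 were called: Rhox9 and Rhox6 with a lower response in B6J, Xlr3a with a higher one, and Tdrd5, a piRNA pathway protein that fell less in B6J (0.98, adjusted p = 0.0193; 5 of 12 fits with 1 library left out, up to 0.0704, without replicate 2 of B6J with the inhibitor). The neural list held 2 of 19 (Neurog1 and the intermediate filament Nes, 0.57, adjusted p = 0.0277; 2 fits, up to 0.0964, without replicate 2 of B6J with the inhibitor), the Wnt list 2 of 24 (Wnt7b and Axin2) and the trophoblast and keratin list 3 of 16 (Eomes, Gata3 and Krt7). The Nodal, G1/S and glycolysis lists held 1 each (Smad3, Ccne1 and Pdk1), as did the formative and primed list (Grhl2), of 16, 28, 22 and 21 genes. Limma-voom also gave 1 lower in B6J for each of these 4 lists, and DESeq2 gave, as higher and lower, 1 and 2 for Nodal, 0 and 1 for G1/S, 0 and 2 for glycolysis and 3 and 2 for the formative list. Without the 4 libraries that stand apart the counts were 1 and 2, 4 and 5, 3 and 3, and 8 and 3 in the same order. Of 50 cytosolic ribosomal protein genes edgeR called 0 (3 at an unadjusted p under 0.05, 0 by DESeq2 and limma-voom), and all 50 lay below 0, with a median of -0.16. Their mean log2 CPM was 9.37, 9.16 and 9.21 in 129 with the inhibitor and 9.47, 9.25 and 9.21 in B6J with DMSO. It was 9.09 to 9.20 in 129 with DMSO and 9.23 to 9.29 in B6J with the inhibitor. The 2 highest values, both of replicate 1, are from libraries that stand apart, and their part in this shift was not tested. In the interferon response list edgeR called 0 of 25 (9 at an unadjusted p under 0.05, 5 by DESeq2, 0 by limma-voom), 6 without replicate 1 of 129 with DMSO. Hox genes had 0 of 35 (6 unadjusted, 1 by DESeq2, 0 by limma-voom), polycomb genes 0 of 25 (2 unadjusted, 0 by both other tools) and cholesterol synthesis genes 0 of 24 (2 unadjusted, 0 by both).

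By position, called genes were 2.53% of those tested on the X chromosome (15 of 592), 2.64% on chromosome 15 and 0.669% on chromosome 11, against 1.48% over all. Of the called genes 13 pairs lay within 100000 bases of each other. Besides the Fbxo and Rhox pairs, the neighbours Bdh2, a ketone body enzyme (-1.34, adjusted p = 0.0402), and Slc9b2, a sodium/proton exchanger (-1.82, adjusted p = 0.0214), 3273 bases apart on chromosome 3, both had a lower response in B6J; Bdh2 was called in 2 of 12 fits with 1 library left out (up to 0.103, without replicate 2 of 129 with DMSO), with opposite called responses in 1. Gng3 and Bscl2 overlap on chromosome 19 on opposite strands and had -0.92 and -0.66. Their reads cannot be told apart if the counting ignored strand. With 1 library left out, Slc9b2, Gng3 and Bscl2 were called in 8, 12 and 2 of 12 fits. Slc9b2, Gng3 and Bscl2 were chosen after their values were seen. The direction of the interaction was also compared on the CPM scale, as the change in B6J minus the change in 129. Its sign was that of the log2 scale for 236 of the 246 genes and for 69 of the 77 with 1 sign. For the 40 with opposite responses (40 of 40) the sign follows from the class, so it adds no support.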

How the data were processed

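RNA of 12 mouse ES cell samples was measured by stranded mRNA sequencing, per the labels' protocols. The authors deposited raw read counts per gene, 26742 genes by 12 samples. HTSeq 0.6.1p1, STAR 2.7.10, DESeq and SAMtools are the tools listed, per the submitters' processing notes, with the build mm10 (GRCm38). Which gene annotation and strand setting the counting used is not given in the sources used here. The 13 mitochondrial genes are at 0 in the table. Between 70.1% and 73.4% of values from 1 to 20 are even, against 52.1% to 55.2% of values from 101 to 1000, so counts were also halved as an alternative. Gene positions were taken from GENCODE M21, which holds 26725 of the identifiers, and promoters from RefSeq.

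Counts were tested as deposited with edgeR 4.0.16 (R 4.3.3): filterByExpr (minimum count 10, minimum total 15) kept 16627 genes, libraries were scaled by TMM, 4 group means were fitted to all 12 libraries with glmQLFit, and the interaction, both responses and both background differences were tested with glmQLFTest, each with Benjamini-Hochberg adjustment over all genes tested, at 0.05. No replicate block was used. Levels are CPM from TMM-scaled totals. Tested on simulated counts for the interaction (16627 genes), the procedure found 11.9% of 67 genes changed 1.5-fold, 49.3% of 67 changed 2-fold and 86.4% of 66 changed 4-fold, with 1 false call among 99. The changes were set only in genes with higher counts. Simulated libraries were drawn independently, so none was made to stand apart as 1 library of each group does here. These rates therefore do not carry over to the deposited counts.

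Named genes are the 6 with the largest interaction in each class, among called genes with at least 5 CPM in the highest group and the same sign for the 3 replicate numbers, provisional names left out. The sign condition was met by all 246 called genes, so it left out none and adds no support. Called members of the gene lists and 9 fixed genes of the MEK response and DNA methylation were added. Genes named beside a list count without a called interaction, and T and Fgf8, were chosen after their values were seen. The members and lists were chosen with earlier results of these data known. Alternatives were other scalings, filters, replicate blocks, a fibroblast marker covariate, leaving out libraries, DESeq2 1.42.0 and limma-voom 3.58.1.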

Additional observations from a re-analysis of the deposited data

Results flagged for a closer look

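For 27 of the named genes the response to the inhibitor differed between the backgrounds at an adjusted p under 0.01 in edgeR's quasi-likelihood test of the difference itself. Values are the B6J response minus the 129 response, on the log2 scale.

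Among genes that fell in 129 and rose in B6J these were Sema5a (3.36), Gbp4 (3.30), Gsc (3.28) and Ndrg1 (1.30). Among those that rose in 129 and fell in B6J they were Kbtbd11 (-3.03), Klhl13 (-1.30), Setdb1 (-0.80), Gadd45a (-1.19), Ackr4 (-2.34) and Fbxo44 (-1.44). Genes with a called response in 129 and not in B6J were Pramef12 (-1.55), Rhox9 (-2.17), Rhox6 (-2.18), Cth (-0.62), Apln (3.73), Nrcam (2.26) and Tapbp (0.86). Those with a called response in B6J and not in 129 were Xlr3a (4.21), Inhbb (-1.11) and Wnt7b (-1.98). Genes with 1 sign in both and unequal size were Eomes (2.41), Lhx1 (5.06), Mixl1 (2.92), Slc40a1 (-1.86), Ltb (-1.86), Ttbk1 (-1.74) and Pdcl2 (2.32).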

How the results depend on the processing

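Across the 24 alternatives the sign of the interaction was the same for the 246 called genes wherever they were tested. This was close to fixed in advance, since the genes were selected on these same libraries. The number of calls was not stable. The alternatives of leaving out both 129 libraries numbered 1 or the 4 libraries that stand apart, were chosen after seeing the data, and the latter leaves out the libraries least like the others, so the spread is smaller by construction. Leaving out 1 library gave 73 to 586 calls (34 to 323 higher and 39 to 263 lower in B6J), with 23 to 146 genes called in 129 alone, 19 to 144 in B6J alone and 17 to 87 with opposite responses. In the same order the counts were 788, 363, 425, 254, 220 and 14 with the fibroblast covariate, 798, 402, 396, 233, 232 and 70 with DESeq2, 608, 323, 285, 136, 140 and 100 without both 129 libraries numbered 1, and 2059, 1023, 1036, 648, 381 and 190 without the 4 libraries. Limma-voom gave 163 calls, 70 of them higher in B6J. The cause of these shifts was not tested. Scaling, filters and halved counts gave 211 to 256 calls.

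Replicate numbers were not taken as pairs: same-numbered libraries correlated at 0.442, 0.295 and 0.222 in 129 and at -0.188, 0.0883 and -0.17 in B6J. With a replicate block within each background 238 genes were called, 163 of them among the 246. With a replicate block shared by both backgrounds 156 were called, 74 lower in B6J, 37 in 129 alone and 40 in B6J alone. The block within each background called 4 higher and 0 lower of 21 formative genes, in which the call of Grhl2 was lost, and 0 higher and 1 lower of 16 methylation writers, in which Uhrf2 was lost and Dnmt3a gained. The shared block called 0 in both lists.

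Reversals occurred in 3 genes that were never called. Prdm14 was at 0.00730 without a filter, 0.126 without both 129 libraries numbered 1, 0.253 without the 4 libraries and -0.210 to 0.220 with 1 library left out. Dnmt3b was at -0.00780 with the covariate, -0.0537 without the 4 libraries and -0.0553 to 0.116 with 1 library left out. Dnmt1 was at -0.0108 without both 129 libraries numbered 1. At this number of libraries the median SE of an interaction was 0.227, against 0.161 for a response in 129. In the simulated counts 11.9% of 67 interactions of 1.5-fold were found, so small ones are found less often than large ones.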
